A study of Homo sapiens with 9 samples.

Results

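A run of zinc finger genes lies at the far end of the long arm of human chromosome 19, in band 19q13.43, and is described here in HL-60, a promyelocytic leukaemia cell line. The set holds the 46 listed zinc finger genes from ZNF444 and its neighbour ZNF787 to the end of the arm, found by gene symbol among the 20637 genes of the table. Of these, 41 were found. The other 5 (ZNF418, ZNF256, ZNF606, ZNF135 and ZNF8) were not analysed here. A gene was tested when its normalized read count was at least 10 in at least 3 of the 9 libraries, which 36 of the 41 passed. Polyadenylated RNA was sequenced from 3 groups with 3 biological replicates each. HRD cells are HL-60 cells resistant to daunorubicin (DNR), an anthracycline that poisons DNA topoisomerase II, and were grown in 30 nM of it. HRA is the HL-60 population with resistance to Ara-C (cytarabine), a nucleoside analogue that blocks DNA synthesis, and was kept in 100 nM of it. The parental cells are the HL-60 line without either resistance. The labels name 1 HRD and 1 HRA population, so replicates cover the spread within each of them, and resistance cannot be told apart from the drug in the medium or from other differences between the lines.

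Most genes of this stretch encode KRAB zinc finger proteins. Their tandem C2H2 fingers read DNA, often inside transposable elements, and their KRAB domain recruits the corepressor TRIM28 (KAP1). TRIM28 in turn brings the histone methyltransferase SETDB1 and HP1 proteins, which form heterochromatin marked by trimethylated histone H3 lysine 9. The genes arose by repeated tandem duplication, and several promoters of 19q13 zinc finger genes are known to be methylated in tumours. In GENCODE 29 coding sequences a KRAB-like stretch of residues was found in 36 of the 41 members. It was sought only in the first part of each protein. The longest predicted protein of a member held 3 to 18 C2H2 fingers (median 11) in 327 to 868 residues.

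The genes were chosen by position and by their normalized read counts in these same HRD, HRA and parental libraries, with earlier results known. All differences between groups below are therefore given as a description. A gene is said to rise or fall where a limma fit over all 12569 tested genes gave a Benjamini-Hochberg adjusted p below 0.05, and the share of all tested genes so called stands beside each count. The 9 libraries held 20822709 to 66563328 reads. Of 8 promyelocyte markers 7 were above 10 in every library, with sums of 226086 to 347421, and the remaining one, ELANE, stood at 0 to 4.06. Markers of other cell types were low but not all at 0. The sum of 3 T-cell markers was 2.14 to 3.01 in HRD, 10.97 to 31.1 in HRA and 18.0 to 18.4 in parental libraries, with CD3E at 0 to 1.35. That of 2 B-cell markers was 1.51 to 6.45 in HRD, 23.1 to 40.6 in HRA and 8.99 to 19.6 in parental libraries, with MS4A1 at 0 to 1.23. COL1A1 stayed between 0 and 0.698. KRT8 was present at 274 to 390 in HRD libraries, 91.4 to 152 in HRA libraries and 65.0 to 100.4 in parental libraries, while KRT19 stayed between 0 and 1.22. The part of these markers' sources in the results was not tested. All values are read counts per gene divided by the authors' size factor of the library.

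The 250 bases before the RefSeq transcription start are shown for the 5 tested members with the lowest log2 fold change in HRD, then for ZNF667 and ZNF544, which rose in both resistant lines, and for ZNF274, which rose in HRA. Sequences are written 5′ to 3′ on the gene's strand with GRCh38.p14 positions. Capitals mark matches on either strand to 3 sets of letters: CCGGAAG, a core bound by ETS factors, GGGCGG, the GC box of SP and KLF factors, and ACTACA followed after any 3 bases by CCCAG, the element known for ZNF143 and THAP11. The last was looked for after it had been seen in these sequences.
ZNF304 (chr19:57351021-57351270, plus strand): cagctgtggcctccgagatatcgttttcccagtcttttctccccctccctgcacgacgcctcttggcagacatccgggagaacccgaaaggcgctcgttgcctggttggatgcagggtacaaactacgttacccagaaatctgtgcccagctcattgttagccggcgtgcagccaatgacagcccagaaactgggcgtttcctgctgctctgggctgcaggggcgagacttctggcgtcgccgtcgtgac
ZNF776 (chr19:57746565-57746814, plus strand): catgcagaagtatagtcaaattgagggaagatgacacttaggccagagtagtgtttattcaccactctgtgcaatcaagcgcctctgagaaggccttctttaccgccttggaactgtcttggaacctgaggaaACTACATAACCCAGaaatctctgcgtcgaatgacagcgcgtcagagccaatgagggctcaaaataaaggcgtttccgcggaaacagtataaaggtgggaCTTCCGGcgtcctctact
ZNF530 (chr19:57599635-57599884, plus strand): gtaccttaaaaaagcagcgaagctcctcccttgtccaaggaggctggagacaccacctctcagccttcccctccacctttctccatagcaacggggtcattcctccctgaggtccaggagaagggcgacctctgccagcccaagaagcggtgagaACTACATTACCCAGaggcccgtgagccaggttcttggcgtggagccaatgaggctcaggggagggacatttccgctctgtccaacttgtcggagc
ZNF772 (chr19:57477567-57477816, minus strand): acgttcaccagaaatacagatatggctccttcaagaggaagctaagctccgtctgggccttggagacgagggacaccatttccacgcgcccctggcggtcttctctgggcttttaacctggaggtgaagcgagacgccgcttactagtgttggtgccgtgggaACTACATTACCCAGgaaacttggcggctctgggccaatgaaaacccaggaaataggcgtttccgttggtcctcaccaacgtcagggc
ZNF470 (chr19:56567218-56567467, plus strand): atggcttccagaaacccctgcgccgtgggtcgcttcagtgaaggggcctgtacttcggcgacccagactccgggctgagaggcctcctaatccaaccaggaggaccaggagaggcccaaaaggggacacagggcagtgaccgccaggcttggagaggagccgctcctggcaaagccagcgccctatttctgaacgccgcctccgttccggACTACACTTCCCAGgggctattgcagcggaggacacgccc
ZNF667 (chr19:56477346-56477595, minus strand): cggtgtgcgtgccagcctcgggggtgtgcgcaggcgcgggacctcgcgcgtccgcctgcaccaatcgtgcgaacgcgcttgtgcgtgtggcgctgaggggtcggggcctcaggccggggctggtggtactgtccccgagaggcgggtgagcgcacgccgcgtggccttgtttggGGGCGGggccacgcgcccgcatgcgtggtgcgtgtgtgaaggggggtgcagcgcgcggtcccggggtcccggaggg
ZNF544 (chr19:58228664-58228913, plus strand): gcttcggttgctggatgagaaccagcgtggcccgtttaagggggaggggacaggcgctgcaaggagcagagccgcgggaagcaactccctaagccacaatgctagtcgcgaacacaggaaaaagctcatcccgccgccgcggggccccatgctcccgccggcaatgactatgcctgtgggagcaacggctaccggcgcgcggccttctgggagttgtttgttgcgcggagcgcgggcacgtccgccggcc
ZNF274 (chr19:58182811-58183060, plus strand): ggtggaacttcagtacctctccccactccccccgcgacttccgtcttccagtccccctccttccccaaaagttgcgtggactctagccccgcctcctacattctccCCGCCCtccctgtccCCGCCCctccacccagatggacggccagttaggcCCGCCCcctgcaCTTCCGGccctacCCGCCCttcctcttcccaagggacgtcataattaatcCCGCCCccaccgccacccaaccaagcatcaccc
None of the first 5 promoters held a GC box, and ZNF530, ZNF772, ZNF776 and ZNF470 held the ZNF143-type element. The untested ZNF264, with 1 read in HRD against 94 in parental cells, held 1 GC box, 1 ETS core and no ZNF143-type element. Of the 4 untested members with a promoter entry, 2 (ZNF264 and ZNF671) held a GC box and 0 the ZNF143-type element. ZNF274 held 5 GC boxes and ZNF667 held 1, while the promoter of ZNF544 held none of the 3.

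In HRD cells, 18 of the 36 tested members fell and 2 rose relative to parental cells. Over all tested genes 12.0% were called lower and 10.7% higher in this comparison. Of those that fell, 10 members were at least 2-fold lower, against 2.35% of all tested genes, and 8 of them were at least 4-fold lower, against 0.827%. Each of these counts includes ZNF772, which passed the filter only through its parental libraries. Its fall was thus favoured by the filter, and nothing is read from it. The other 8 fell by less than 2-fold. The member just past the 2-fold mark was ZNF586 (log2 fold change −1.55 ± 0.13, SE) and the one just short of it ZNF134 (−0.68 ± 0.11), with no member between them. In bulk RNA, fewer cells with a transcript and less transcript per cell cannot be told apart.

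**Figure D1:**
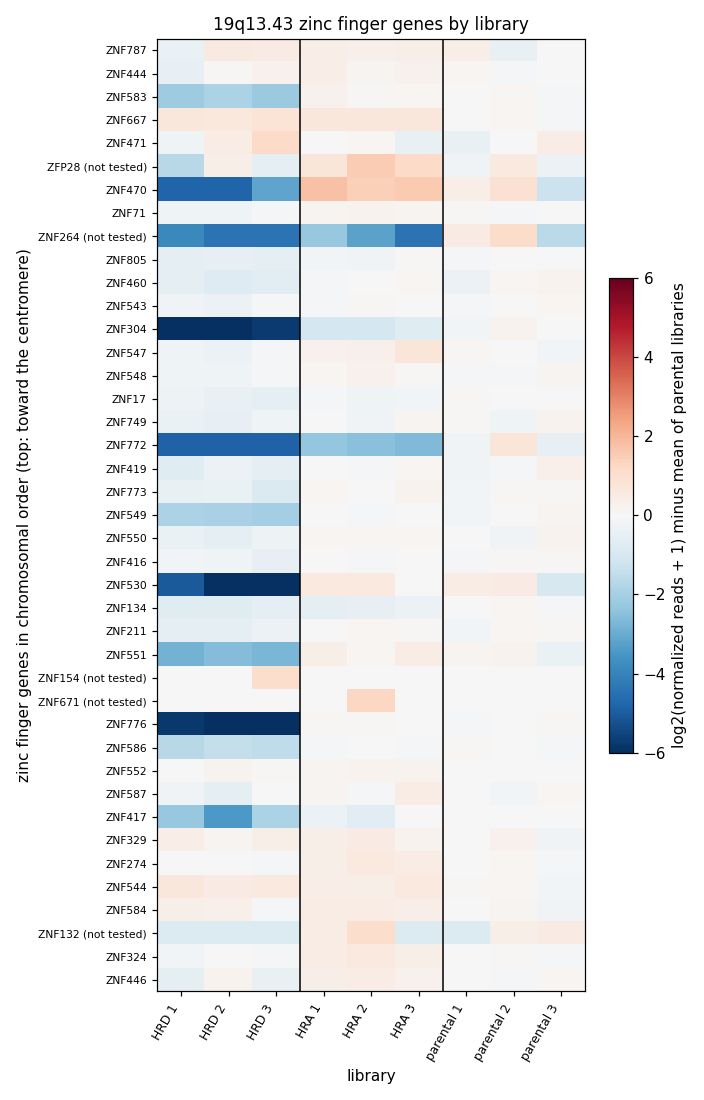
Level of the 41 members in every library. Rows are genes in chromosomal order, columns are the 3 HRD, 3 HRA and 3 parental libraries, and colour is log2(normalized reads + 1) minus the mean of the parental libraries, on a scale that ends at 6 in either direction. Dark blue rows in the HRD columns are single genes, and the genes beside most of them are pale.

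ZNF304, a KRAB zinc finger known in human cells to help silence the INK4-ARF locus, had normalized read counts of 0.496, 1.51 and 3.21 in HRD libraries, 107, 107 and 134 in HRA libraries and 198, 255 and 219 in parental libraries. The 3 groups did not overlap, with HRD near 0 and HRA in between. Its 5 HRD reads against 706 parental reads gave a level 156-fold lower in HRD (95% exact counting interval 66.7 to 483, which covers counting error only). ZNF776, another KRAB zinc finger gene, had values of 2.98, 1.51 and 1.07 in HRD, 232, 230.0 and 228 in HRA and 209, 227 and 229 in parental libraries. HRA and parental libraries overlapped, and HRD libraries lay far below them (log2 fold change against parental −6.34 ± 0.25).

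ZNF530 had values of 0.992, 0 and 0 in HRD libraries, 95.6, 97.4 and 64.6 in HRA libraries and 87.0, 92.0 and 33.0 in parental libraries. Only 2 reads were left in the HRD libraries against 252 in the parental ones, a ratio of 140-fold with a counting interval of 38.2 to 1159. ZNF470 had values of 0, 0 and 2.14 in HRD, 94.2, 75.8 and 82.8 in HRA and 35.9, 51.5 and 10.5 in parental libraries. All HRD libraries were below, and all HRA libraries above, every parental library. The 2 HRD reads against 113 parental reads gave a ratio of 62.6-fold (counting interval 16.9 to 523). Such intervals leave out the spread between libraries. The fitted log2 fold change of −4.26 became −4.91 without parental replicate 3. In HRA the log2 fold change of ZNF470 was 1.59 ± 0.59 and did not pass, with 0.95 without parental replicate 3.

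ZNF772 had no read in any HRD library, values of 4.89, 4.06 and 3.65 in HRA libraries and 24.1, 46.6 and 19.5 in parental libraries. The level was at least 34.7-fold lower in HRD than in parental cells, taking a floor of 3 reads over the HRD group. It fell in HRA too (−2.49 ± 0.46), and the 3 groups did not overlap. ZNF772 is the 1 tested member that passed the filter through parental libraries alone. ZNF264 was not tested because only 2 libraries reached 10. It had values of 0.496, 0 and 0 in HRD, 3.49, 1.35 and 0 in HRA and 29.7, 45.4 and 6.0 in parental libraries, from 1 HRD, 6 HRA and 94 parental reads. Its predicted protein is 85.3% identical to that of ZNF805, so the pair may exchange reads. HRD and HRA libraries both lay below every parental library, and the ratio of parental to HRD was 104 (counting interval 18.2 to 4155).

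The other 5 members that fell at least 2-fold in HRD kept part of their transcript. ZNF551 had values of 27.8, 33.1 and 29.9 in HRD, 265, 221 and 280.2 in HRA and 232, 239 and 157 in parental libraries. ZNF583 had 25.3, 30.1 and 23.5 in HRD, 138, 120.4 and 124 in HRA and 112, 124 and 106 in parental libraries. ZNF549 had 104, 99.4 and 95.1 in HRD, 398, 364 and 389 in HRA and 348, 390.2 and 442 in parental libraries. In each of these the HRD libraries agreed closely and lay below all others, by a log2 fold change of −2.73, −2.08 and −1.97 against parental cells.

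ZNF586 had values of 99.7, 117 and 111 in HRD, 308, 330.1 and 301 in HRA and 333, 329 and 306 in parental libraries. ZNF417, which with its close relative ZNF587 is known to repress HERV-K elements in human cells, had 34.2, 15.1 and 46.0 in HRD, 133, 112 and 167 in HRA and 174, 169 and 172 in parental libraries. The fall of ZNF417 in HRD (−2.53 ± 0.33) was the most variable between replicates of these 5. ZNF587 had 695, 559 and 800.4 in HRD, 912, 787 and 1093 in HRA and 822, 734 and 898 in parental libraries, so HRD and parental values overlapped and it did not pass (−0.27 ± 0.15). The longest predicted proteins of ZNF417 and ZNF587 were 98.1% identical over 575 residues, so reads may be exchanged between them and their separate values are uncertain.

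**Figure D2:**
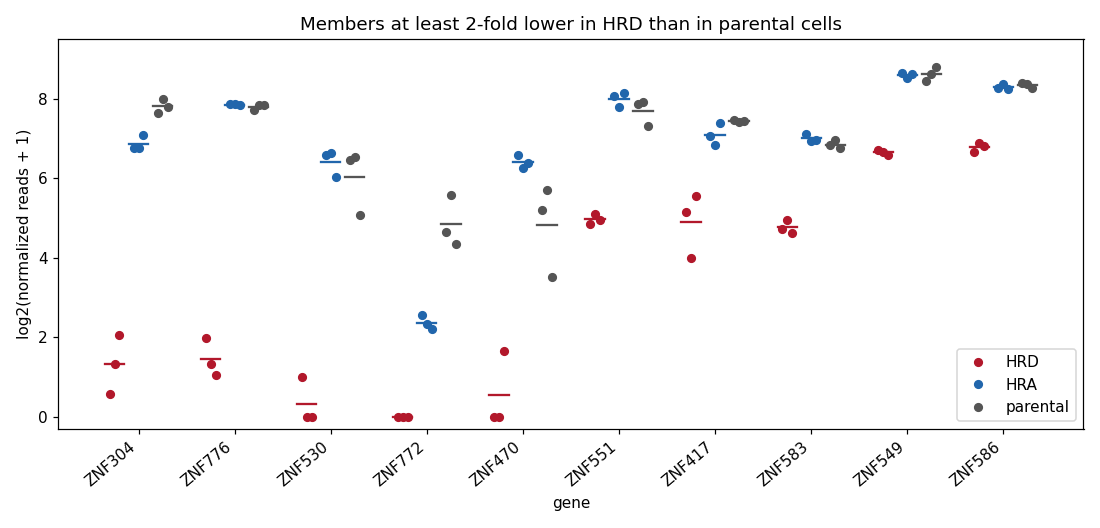
The 10 members at least 2-fold lower in HRD than in parental cells. Each point is 1 library on a log2(normalized reads + 1) axis, bars are group means, and genes run from the lowest to the highest fold change. Every HRD point lies below every HRA and parental point of its gene, and HRA points lie apart from parental ones without overlap for ZNF304, ZNF772, ZNF470 and ZNF417.

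The 8 smaller falls in HRD were those of ZNF134 (1.61-fold lower), ZNF460 (1.58), ZNF419 (1.49), ZNF773 (1.48), ZNF805 (1.43), ZNF211 (1.39), ZNF17 (1.36) and ZNF550 (1.32). ZNF134, in which no KRAB-like stretch was found, had values of 323, 327 and 359 in HRD, 358, 379 and 417 in HRA and 543, 579 and 502 in parental libraries. Both resistant lines lay below every parental library. ZNF805 had 285, 289 and 289 in HRD, 364, 359.8 and 431 in HRA and 397, 421 and 421 in parental libraries. With the tested genes held fixed, 14 of the 20 calls were kept whichever single library was left out. ZNF772 is counted among them, but it was tested only through its parental libraries. It would miss the filter without any of them, so nothing is read from its refits. The calls of ZNF460, ZNF17, ZNF211, ZNF550, ZNF419 and ZNF773 were lost without 3 to 8 of the 9 libraries, each taken singly, and HRD and parental values did not overlap for any of them. ZNF749, ZNF416, ZNF543, ZNF548 and ZNF71 were also lower in all HRD than in all parental libraries without passing, with log2 fold changes of −0.38 to −0.21. In all 23 members were lower without overlap, against 18.2% of all tested genes, and 2 were higher, against 17.1%.

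ZNF667, whose rat counterpart was found as a gene induced by brief ischaemia, rose in HRD to 450.5, 434 and 500.1 and in HRA to 451, 449 and 454, against 276, 308 and 269.8 in parental libraries. HRD and HRA libraries overlapped each other and lay above all parental ones (log2 fold change 0.70 ± 0.11 in HRD and 0.67 ± 0.11 in HRA). The antisense gene that starts beside it, ZNF667-AS1, stood at 281 ± 30.6 in HRD, 225 ± 31.0 in HRA and 155 ± 41.7 in parental cells (SD, n = 3 each). It rose in HRD (0.89 ± 0.20), its HRA change did not pass (0.57 ± 0.20), and reads of the overlapping exons of the pair cannot be told apart because no source gives the strand used in counting. ZNF544 had values of 1150.0, 997 and 1071 in HRD, 939, 896 and 1054 in HRA and 737, 762 and 644 in parental libraries, and rose 1.5-fold in HRD and 1.35-fold in HRA.

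The remaining upper end of the HRD comparison did not pass. ZNF471, whose promoter is known to be methylated in gastric tumours, had values of 6.95, 12.1 and 20.3 in HRD, 8.38, 9.47 and 6.09 in HRA and 6.17, 8.59 and 12 in parental libraries. ZNF329 had 230.2, 197 and 221 in HRD, 224, 248 and 201 in HRA and 170.0, 209 and 148 in parental libraries. In both genes HRD and parental values overlapped. ZNF787 had 226, 434 and 422 in HRD, 399, 375 and 376 in HRA and 396, 221 and 307 in parental libraries. ZNF584 had 528, 518 and 401 in HRD, 565, 572 and 556 in HRA and 423, 475 and 364 in parental libraries. HRD and parental values overlapped here too, with log2 fold changes of 0.31, 0.21 and 0.19 for the last 3 genes. ZNF552, which lies between ZNF586 and the ZNF587 copies, had 299, 351 and 318 in HRD, 334, 350.4 and 345 in HRA and 300.2, 299 and 301 in parental libraries.

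In HRA cells fewer members moved. Of the 36 tested, 4 rose (ZNF667, ZNF324, ZNF274 and ZNF544) and 2 fell (ZNF772 and ZNF134), while 9.13% of all tested genes were called higher and 6.1% lower. The filter favoured the fall of ZNF772, which was tested only through its parental libraries, so nothing is read from it. Both comparisons use the same parental libraries, so their values are not independent. ZNF274, which in human cells guides SETDB1 to the 3′ ends of zinc finger genes, had values of 679.7, 666 and 649 in HRD, 868, 1001 and 919.8 in HRA and 686, 734 and 618 in parental libraries. The HRA libraries lay above all others (0.45 ± 0.10), and HRD and parental libraries overlapped (−0.03 ± 0.10). ZNF324 had 369, 405 and 389 in HRD, 556, 606 and 529 in HRA and 405, 433 and 389.7 in parental libraries, and HRA did not overlap parental (0.46 ± 0.11).

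The call of ZNF667 in HRA was kept without any single library. ZNF772 was tested only through its parental libraries and would miss the filter without any of them, so nothing is read from its refits. That of ZNF134 was lost without HRA replicate 1 or 2 or parental replicate 2, and that of ZNF544 without HRA replicate 1 or 3 or parental replicate 3. That of ZNF274 was lost without HRA replicate 2, and that of ZNF324 without HRA replicate 1 or 2. Whether the replicate number pairs HRA and parental libraries was not shown. A fit with the number as block had 5 members that rose and 3 that fell, adding ZNF584 (0.43 ± 0.14 without the block) and ZNF304 (−0.94 ± 0.34). No overlap with parental libraries was seen for 11 members that were higher in HRA and 5 that were lower, against 19.3% and 18.7% of all tested genes. Among them ZNF547 was at 66.5, 60.3 and 69.5 in HRD, 92.8, 94.7 and 128 in HRA and 82.5, 78.5 and 68.9 in parental libraries, higher in HRA. ZNF17 was at 276, 250.1 and 223 in HRD, 313, 280.0 and 303 in HRA and 353, 331 and 336 in parental libraries, lower in HRA. Neither passed in HRA. Other tested zinc finger genes of chromosome 19, 107 in all, had 35 higher and 7 lower in HRA without overlap. The 619 tested chromosome 19 genes without zinc finger symbols had 276 higher and 14 lower, and 21.8% of them were called higher, against 11.1% of the members. Higher values in HRA were thus not particular to the members.

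Set directly against HRA cells, HRD cells had 22 of the 36 members lower and 0 higher, where 16.2% of all tested genes were called lower and 13.9% higher. At an unadjusted limma p below 0.05, 0 members were higher and 24 lower, and edgeR and DESeq2 on recovered reads also called 0 higher. Of the 36 tested members, 10 (27.8%) were called at least 2-fold lower in HRD than in HRA, against 3.38% of all tested genes. They ran from ZNF776 (−6.40 ± 0.25) and ZNF530 (−6.09 ± 0.45) to ZNF586 (−1.51 ± 0.13), with ZNF772 counted among them. These were the same members that fell at least 2-fold against parental cells. Both comparisons use the same HRD libraries, so the second fall of these members is not independent of the first. ZNF772 had 0 reads in HRD and 13 in HRA, so its fitted value depends on the pseudocount (−2.37, with no call at a pseudocount of 5). ZNF667 (0.03 ± 0.11), ZNF544 (0.16 ± 0.10) and ZNF134 (−0.19 ± 0.11), which changed in both resistant lines, did not pass between them. In all, 27 members were lower in HRD than in HRA without overlap, against 24.2% of all tested genes, and 0 were higher, against 22.8%. Other tested zinc finger genes of chromosome 19, 107 in all, had 71 lower and 2 higher without overlap, and 52.3% were called lower. The 619 tested chromosome 19 genes without zinc finger symbols had 250 lower and 35 higher, and 24.2% were called lower. Lower values in HRD than in HRA were thus not particular to the members.

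**Figure D3:**
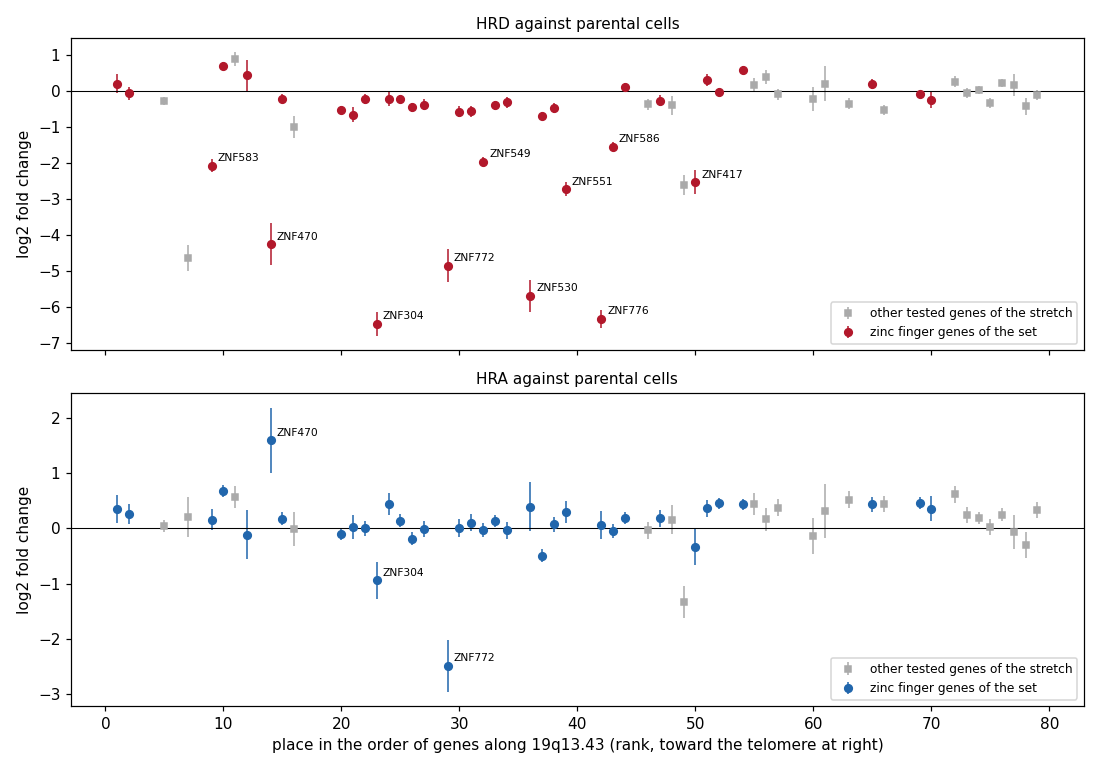
Log2 fold change along the stretch, for HRD against parental cells (top) and HRA against parental cells (bottom). The horizontal axis is the rank of each gene of the table in chromosomal order, points are fitted values and bars their standard errors. In HRD ZNF470, ZNF304, ZNF772, ZNF549 and ZNF530 lie between tested genes with changes under 2-fold, the other 5 labelled members lie next to another gene at least 2-fold lower, and none of the last 6 tested members fell.

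The falls in HRD did not cover an unbroken block. ZNF304 lay between ZNF543 (−0.23) and ZNF547 (−0.22), neither of which passed. ZNF470 had ZNF471 (0.44) and ZNF71 (−0.21) as nearest tested members, ZNF772 had ZNF749 (−0.38) and ZNF419 (−0.57), and ZNF530 had ZNF416 (−0.31) and ZNF134 (−0.68). Other large falls lay side by side. ZNF776 had as nearest tested genes ZNF551 (−2.73) and ZNF586 (−1.55), which was followed by ZNF552 (0.10). Outside the set, ZNF582 (−4.64) was the tested gene before ZNF583 (−2.08), and ZNF814 (−2.62) the one before ZNF417 (−2.53). All 10 of the larger falls were among the 30 tested members from ZNF787 to ZNF417, whose median log2 fold change was −0.50 in HRD and 0.06 in HRA. The 6 tested members from ZNF329 to the end of the arm had medians of 0.08 in HRD and 0.43 in HRA, and in HRA they spanned only 0.35 to 0.46. This division was drawn after the values were seen. Over 619 tested chromosome 19 genes without zinc finger symbols the median was 0.06 in HRD and 0.33 in HRA.

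Among 22 tested genes of the stretch that are not in the set, 4 fell and 1 rose in HRD and 2 rose and 1 fell in HRA. These are 18.2% lower and 4.55% higher in HRD, where all tested genes had 12.0% and 10.7%, and 9.09% higher and 4.55% lower in HRA, where all tested genes had 9.13% and 6.1%. ZNF582, a zinc finger gene beside ZNF583, had no read in HRD libraries, against 28.0 ± 3.24 in HRA and 24.4 ± 5.58 in parental cells, at least 30.6-fold below parental. ZNF814, which overlaps ZNF587 on the opposite strand, was at 14.9, 10.5 and 17.1 in HRD, 42.6, 27.1 and 37.8 in HRA and 86.4, 117 and 73.4 in parental libraries. The other 2 that fell were SMIM17 (−1.0 ± 0.31) and ZNF324B (−0.54 ± 0.14), whose predicted protein is 86.4% identical to that of ZNF324. ZNF324B was at 116, 113 and 97.2 in HRD, 225, 212 and 206 in HRA and 158, 163 and 153 in parental libraries. TRIM28, the corepressor of KRAB zinc fingers, lies at the end of the same stretch and stood at 9188, 9981 and 9812 in HRD, 10863, 10124 and 11128 in HRA and 11366, 8798 and 8327 in parental libraries, with no call in either line (0.04 ± 0.11 and 0.19 ± 0.11).

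The median log2 fold change of the 36 tested members was −0.39 in HRD and 0.13 in HRA, where all tested genes had 0.01 in HRD and −0.01 in HRA. It was the same with ZNF772 placed at its bound. Of 107 other tested zinc finger genes of chromosome 19, 41 fell and 2 rose in HRD (median −0.30) and 5 fell and 13 rose in HRA (median 0.21). Of 200 tested zinc finger genes on other chromosomes, 38 fell and 11 rose in HRD (median −0.06) and 17 fell and 12 rose in HRA (median −0.05). Falls of at least 4-fold in HRD were made by 22.2% of the members, 16.8% of the other chromosome 19 zinc finger genes and 1.5% of those on other chromosomes. Of 28 partners of KRAB zinc fingers, all of them tested, 4 rose and 4 fell in HRD, and 2 rose and 2 fell in HRA. That is 14.3% in each direction in HRD and 7.14% in HRA, near the shares of all tested genes (10.7% higher and 12.0% lower in HRD, 9.13% higher and 6.1% lower in HRA).

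Among these partners the HP1 gene CBX5 rose in HRD (4467 ± 345, against 3149 ± 342 in parental cells) and the HP1 gene CBX1 fell (4542 ± 572, against 6181 ± 310.2). DNMT3A, a de novo DNA methyltransferase, rose to 194 ± 4.32 in HRD, against 113 ± 10.5 in parental cells, and DNMT3B, another, fell to 364 ± 22.6, against 501 ± 68.9. DNMT3B fell in HRA too (336 ± 53.8). The other partners called in HRD were CHD3 and HDAC2, which rose, and PPHLN1 and EHMT1, which fell. SETDB1 did not pass in HRD (0.04 ± 0.09) or HRA (−0.19 ± 0.09).

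**Figure D4:**
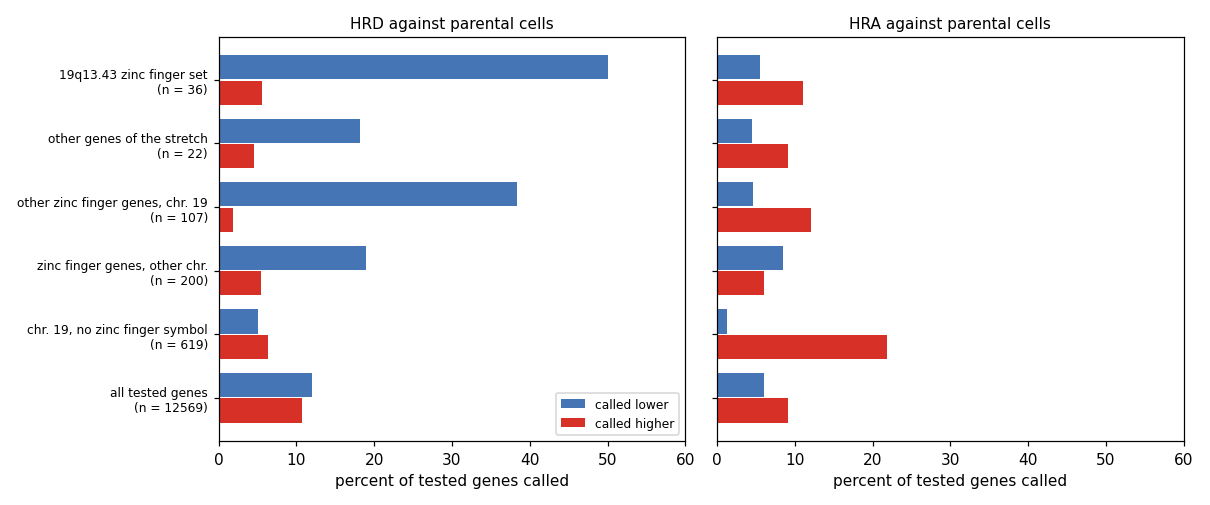
Percent of tested genes called lower (blue) and higher (red) in each gene list, for HRD against parental cells (left) and HRA against parental cells (right), with the number tested beside each list. The members and the other zinc finger genes of chromosome 19 had the highest shares of falls in HRD, at 50% and 38.3%.

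A promoter entry was found for 36 of the 41 members and none for ZNF471, ZFP28, ZNF211, ZNF552 and ZNF417. The ZNF143-type element stood in 10 of the 36, or 27.8%, against 2.74% of 9208 promoters of tested genes and 1.25% of all 27305. It was present in 6 of 9 members that fell at least 2-fold in HRD and in 4 of 23 other tested members. The letters GCCAAT, the core of the NF-Y box, stood in 44.4% of the members and 19% of tested genes, and were present in 6 of the 9 and 9 of the 23. The ETS core CCGGAAG stood in 50% of the members and 16.7% of tested genes, and in 3 of the 9 and 12 of the 23.

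The GC box GGGCGG went the other way, with 1 of the 9 members that fell at least 2-fold, 16 of the 23 others and 66.9% of tested genes. The 1 was ZNF586, the member with the smallest of those falls. CpG pairs per upstream window ran from 8 to 17 (median 16) in the 9 and from 8 to 35 (median 20) in the 23, and 21 was the median over tested genes. All matches were sought on both strands, and matches of different sets may overlap. The members were divided here by their HRD values and share ancestry by duplication, so these shares are a description of the windows and have no test. The NF-Y letters were also chosen after the sequences were seen.

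**Figure D5:**
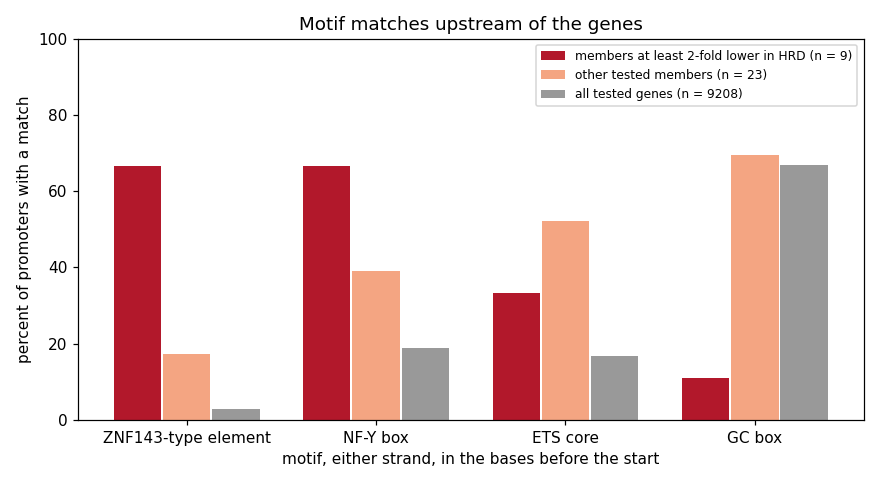
Percent of promoters with each set of letters in the upstream window, for members at least 2-fold lower in HRD, other tested members and all tested genes. The ZNF143-type element was in 66.7%, 17.4% and 2.74% of the promoters of these groups, and the GC box in 11.1%, 69.6% and 66.9%.

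Of the predicted proteins, all 10 of the members that fell at least 2-fold in HRD held a KRAB-like stretch, as did 21 of the other 26 tested members. The median number of C2H2 fingers was 12.5 in the 10 and 11 in the 26. No KRAB-like stretch was found in ZNF444, ZNF446, ZNF787, ZNF134 and ZNF329. None of these 5 fell 2-fold in HRD. The stretch was sought only in the first part of each protein, so one further in would be missed. ZNF444, known to activate the SCARF1 promoter in endothelial cells, stood at 243 ± 60.5 in HRD, 299 ± 26.1 in HRA and 249 ± 19.9 in parental cells, and ZNF446 at 60.8 ± 19.2, 90.3 ± 6.72 and 70.6 ± 5.27 in the same order.

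Other pairs of near-identical proteins were ZNF419 and ZNF773 (91.9%), ZNF552 and ZNF587B (87.5%), ZNF264 and ZNF805 (85.3%) and ZNF552 and ZNF814 (85%). ZNF419 stood at 183, 238 and 203 in HRD, 304, 288 and 336 in HRA and 268, 286 and 379 in parental libraries. ZNF773 stood at 153, 157 and 115, 224, 207 and 240.0 and 187, 221 and 217 in the same order, so both had their HRD libraries below the others. ZNF587B, which is not in the set, was at 572, 420.3 and 579 in HRD, 637, 548 and 791 in HRA and 644, 703 and 659 in parental libraries. Exons of 23 of the 41 members overlap those of another gene in GENCODE 29, 12 of them on the opposite strand, among them the convergent pair ZNF549 and ZNF550 and the pair ZNF586 and ZNF552. Counts of such genes depend on how shared reads were assigned, which is not given.

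Besides ZNF264, 4 members were not tested. ZNF154 and ZNF671, whose promoters are methylated in several carcinomas, had 1 read in 1 HRD library and 1 read in 1 HRA library and none elsewhere. ZNF132, known to be methylated in prostate cancer, had 0, 4 and 2 reads in HRD, HRA and parental cells, with values of 0 in every HRD library, 1.40, 2.71 and 0 in HRA and 0, 1.23 and 1.5 in parental libraries. ZFP28 had 3, 17 and 7 reads in the same order, with values of 0, 3.01 and 1.07 in HRD, 4.19, 8.12 and 6.09 in HRA and 1.68, 3.68 and 1.5 in parental libraries. All HRA values of ZFP28 lay above all its parental and HRD values. A count of 3 reads corresponds to a value of 1.49 to 4.52, depending on the library. Values at this level thus rest on few reads, and differences between groups in these genes were not tested.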

How the data were processed

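The deposited table gives signal, the authors' reads per gene scaled by each library's size factor. Every value was a whole multiple, within a tolerance of 0.001, of 1 constant per library, so whole reads were recovered for 100% of values. Per the submitters' processing notes, the tools were HTSeq 0.11.1, DESeq2, TopHat2 2.1.1 with Bowtie2 2.3.5.1, Cufflinks 2.2.1 and Picard, on build hg19, with no order given. The annotation and strand setting are not given in the sources used here.

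Values were transformed as log2(value + 1), and the 9 libraries were fitted together over 12569 genes with limma 3.58.1 under R 4.3.3, letting the variance follow the mean level. Low genes have their change understated on this scale. A log2 fold change carries its SE and a mean its SD over 3 replicates. An exact permutation of 3 against 3 libraries cannot pass 0.05. Alternatives were other pseudocounts, filters and scalings, single libraries left out, a replicate block, edgeR 4.0.16 and DESeq2 1.42.0 on recovered reads. Gene order and promoters came from RefSeq GRCh38.p14, coding sequences from GENCODE 29, since no RefSeq protein table was at hand, and identity from Biopython 1.88 alignments, as a share of the shorter protein. The first listed start of each gene was used.

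Deviations from group means were correlated between same-numbered libraries by 0.22, 0.38 and 0.14 for parental and HRA. The values were −0.08, 0.26 and 0.29 for HRD and parental and −0.03, 0.41 and 0.23 for HRD and HRA. Libraries of different numbers were not compared and no label pairs them, so these values do not show whether the number pairs libraries in any comparison. Members and lists were chosen with earlier results of these data known. Values in every library were given for the 10 lowest and 6 highest members in HRD, the 5 lowest and 5 highest in HRA, untested members, members at least 85% identical to another gene of the stretch and TRIM28. Genes named beyond these were chosen after their values were seen.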

Additional observations from a re-analysis of the deposited data

How the results depend on the processing

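The numbers of members called lower in HRD against parental cells ran from 12 with only the 6 libraries compared to 20 with the replicate block, and 2 were called higher under every alternative. Leaving out 1 library gave 13 to 17 lower in HRD against parental cells with a median of −0.44 (without parental replicate 2) to −0.30 (without parental replicate 3), and 15 to 21 lower in HRD against HRA with a median of −0.53 to −0.48. It gave 2 to 5 higher and 1 to 3 lower in HRA against parental cells, with a median of 0.10 to 0.14. The counts in HRA were 2 higher without HRA replicate 1 or 2, and 1 lower without HRA replicate 1 or 2 or parental replicate 2. With a filter value of 50, 1 member was lower in HRA, because ZNF772 was then not tested. The replicate block gave 24 lower in HRD against HRA, and with it ZNF587 and ZNF749 also fell in HRD against parental cells. ZNF304 was called lower in HRA with a pseudocount of 5, with the replicate block, with only the 6 libraries compared, with edgeR, with DESeq2 and without HRD replicate 1 or 3. ZNF470 was called higher in HRA with a pseudocount of 5 and with DESeq2, and ZNF584 with upper quartile scaling, with only the 6 libraries compared, with the replicate block, with DESeq2, and without HRD replicate 1 or 3 or parental replicate 2. No scaling moved the median of all genes by 0.1. The sign of an uncalled log2 fold change turned in 17 of 1533 recomputed values. They were ZNF419 in HRA with upper quartile scaling (−3.9e-05) and values that came from leaving out 1 library: in HRD against parental cells ZNF787 −0.0118 to 0.514, ZNF274 −0.0939 to 0.0303, TRIM28 −0.0507 to 0.174, and in HRA against parental cells ZNF549 −0.116 to 0.0565, ZNF471 −0.333 to 0.0958, ZNF419 −0.0927 to 0.156, ZNF530 −0.0827 to 0.644, and in HRD against HRA ZNF787 −0.31 to 0.159, ZNF329 −0.126 to 0.0239, ZNF667 −0.0304 to 0.072. The cause of these changes was not tested.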

Other observations

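Parental libraries differed among themselves in the members that fell most in HRD. In 6 of the 8 members at least 4-fold lower in HRD, parental replicate 3 was below the mean of parental replicates 1 and 2, with a median difference of −0.36 on the log2(value + 1) scale. In the same 8 members parental replicate 2 lay the other way from replicates 1 and 3, with a median difference of 0.31 and 1 member lower. The median for replicate 3 was 0.05 over the other 28 tested members and −0.0011 over all tested genes. ZNF470 (35.9, 51.5 and 10.5), ZNF530 (87.0, 92.0 and 33.0), ZNF772 (24.1, 46.6 and 19.5) and ZNF551 (232, 239 and 157) carried the widest gaps, and so did the untested ZNF264 (29.7, 45.4 and 6.0). These genes were picked by values that include this library, and the pattern has no test.

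SLC27A5, a bile acid and fatty acid coenzyme A ligase gene whose exons overlap those of ZNF446, rose in HRA (346 ± 35.2, against 225 ± 19.5 in parental cells).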
